A study of Homo sapiens with 11 samples.

Results

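The 3 arrays of the series titled shNC, shIBSP(1) and shIBSP(2), all taken at 48 h, were compared with the 4 arrays of the same time whose titles name siRNAs (siNC, siHOXB13, siHOXA11, siHOXA11-AS), so that 7 of the 11 arrays entered the comparison. Every array held total RNA of PC3 cells, an established line from a bone metastasis of prostate cancer, hybridized to a human Clariom D array, which reads coding and noncoding transcripts. The other 4 arrays held the siRNA conditions at 24 h and served as a further reference. shNC and siNC were negative controls, the shIBSP arrays targeted IBSP, a protein of the bone matrix, and the remaining arrays targeted the transcription factors HOXB13 and HOXA11 and the antisense transcript HOXA11-AS. All conditions shared the culture in RPMI with serum and a transfection 1 day after seeding.

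The titles of the 3 arrays say sh, the control among them is described as control siRNA, and the treatment text names only siRNAs. The paper lists siRNAs against IBSP, numbered like the shIBSP arrays, and describes no hairpin construct. No source states directly whether these cells received short hairpin RNAs or siRNAs. The arrays are therefore called the sh arrays after their titles. Delivery, day of the experiment and array batch cannot be told apart from the sh title, since no sh array was taken at 24 h and no other array carries it. Each array was a different condition, so the spread within a group holds the effects of the treatments as well as technical error, and no source states whether separate cultures were used. In RNA of whole cultures, fewer responding cells and less RNA per cell cannot be told apart.

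The labels could be checked only in part. IBSP had a log2 intensity of 3.50 on shNC, 3.84 on shIBSP(1) and 3.17 on shIBSP(2), and between 3.56 and 4.40 on the siRNA arrays at 48 h, all below the median of the intron control probe sets, which lay between 4.32 and 4.72 on these 7 arrays. At such levels the targeted gene does not check the shIBSP labels. HOXB13 was at 9.75, 9.91 and 9.91 on the sh arrays and at 8.52 on siNC, 10.36 on siHOXB13, 11.12 on siHOXA11 and 11.20 on siHOXA11-AS. The array labelled siHOXB13 was thus above the array labelled siNC, but both belong to the same group of this comparison. Of 12 markers listed for PC3 cells, 11 were measured and 10 did not pass the test between the groups. KRT8, a keratin of simple epithelia, was at 16.28, 16.31 and 16.35 on the sh arrays and between 15.85 and 17.01 on the siRNA arrays at 48 h. PTPRC, the pan-leukocyte antigen CD45, lay between 6.67 and 6.80 and between 6.34 and 7.08, and CD68 was the only leukocyte marker of 6 measured that passed the test. The siHOXA11 array of 48 h stood apart in quality, with an exon control median of 12.2 where the other arrays lay between 12.7 and 13.3.

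Interferons of type I and type III are secreted when a cell senses foreign nucleic acid, and act through their receptors, the JAK kinases and the transcription factor complex ISGF3, which holds IRF9, on a large set of antiviral genes. These interferon-stimulated genes carry a response element in their promoters, degrade or sequester viral RNA, tag proteins with ISG15 and raise antigen presentation on MHC class I.

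The largest differences between the groups were in these genes. Of 16808 genes tested, 150 were higher and 23 lower on the sh arrays by limma's moderated test at a Benjamini-Hochberg adjusted p of 0.05, which is 0.892% and 0.137% of the genes and 1.03% in all. All 150 rises and all 23 falls were at least 2-fold, and in each of them the 3 sh arrays did not overlap the 4 siRNA arrays. Over all genes the median difference was 0.05 on the log2 scale. The 3 sh arrays lay above all 4 siRNA arrays for 1222 genes (7.27%) and below them for 659 (3.92%). These shares over all genes are the reference for the counts within gene lists below. For 9 of the 150 rises the mean of the siRNA arrays lay below 4.92, the level a gene needed over the arrays to be tested. These genes were tested only through the sh arrays. BST2, MX2, CCL5, DDIT3 and LGALS9 are among them and are given below as bounds without a p-value. Where more than 1 of the siRNA arrays lay below the median of the intron controls, the rise is given as a bound. For a bound each such value was raised to that median. IRF7, RGS4 and TNFSF10, each with 1 such array, are given as differences, and their bounds were 2.31, 2.88 and 2.87. Of the 150 rises, 65 stood in the lists of interferon genes and 85 did not, and none of the 23 falls was in them. The 65, and the counts within some lists below, include genes that were tested only through the sh arrays.

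**Figure D1:**
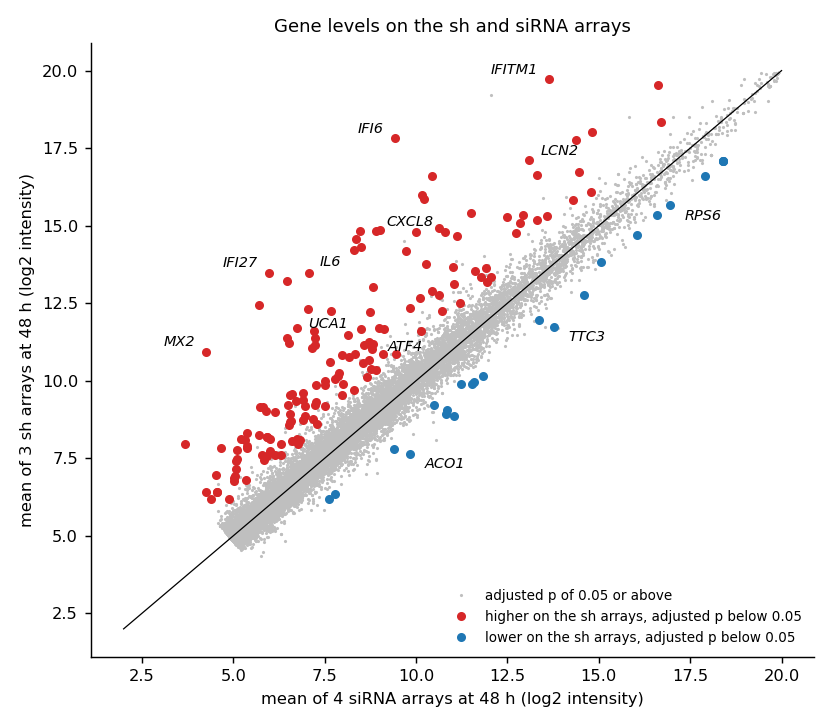
Mean log2 intensity of each of the 16808 genes on the 4 siRNA arrays at 48 h (x axis) and on the 3 sh arrays (y axis), with the line of equal levels. Red points are the 150 genes higher and blue points the 23 genes lower on the sh arrays at an adjusted p below 0.05, and grey points are the other genes; IFI6, IFI27, IL6 and CXCL8 are among the genes farthest from the line.

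The interferon-stimulated response element was looked for in the promoters. RefSeq promoters (GRCh38.p14, 250 bases before to 50 bases after the start) were matched by symbol for 111 of the 150 genes that rose and 13 of the 23 that fell. The letters TTTCNNTTTC, searched on both strands with overlapping matches allowed, were present in 35 of the 111 promoters (31.5%), in 0 of the 13, in 295 of 10076 promoters of all genes tested (2.93%) and in 996 of all 27305 promoters (3.65%). Among the 53 matched genes of the interferon lists that rose, 30 held it, against 5 of the 58 outside these lists. The stretches below show the element, in capitals, for 6 genes described in the next paragraphs, and a match is only a description of the letters.

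IFI6 (chr1:27672241-27672383, minus strand): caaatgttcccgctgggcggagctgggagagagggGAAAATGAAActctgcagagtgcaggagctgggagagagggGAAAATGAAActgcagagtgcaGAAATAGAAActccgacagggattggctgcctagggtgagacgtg
IFI27 (chr14:94110593-94110685, plus strand): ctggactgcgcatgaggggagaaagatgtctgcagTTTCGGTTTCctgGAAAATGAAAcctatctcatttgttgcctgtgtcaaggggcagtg
ISG15 (chr1:1013349-1013434, plus strand): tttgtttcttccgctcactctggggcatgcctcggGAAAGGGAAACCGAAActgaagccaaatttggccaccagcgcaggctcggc
IFIT1 (chr10:89392472-89392564, plus strand): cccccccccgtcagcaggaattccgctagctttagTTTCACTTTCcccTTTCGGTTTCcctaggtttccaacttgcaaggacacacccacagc
BST2 (chr19:17405710-17405795, minus strand): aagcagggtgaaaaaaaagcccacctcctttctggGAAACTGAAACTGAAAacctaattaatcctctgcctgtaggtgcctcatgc
B2M (chr15:44711338-44711423, plus strand): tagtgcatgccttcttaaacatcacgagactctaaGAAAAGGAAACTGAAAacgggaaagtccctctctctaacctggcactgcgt

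All 6 lie upstream of the transcription start. IFI6 held 3 copies, the first 156 and the last 93 bases before the start, and the other 5 genes held 2 each, overlapping in ISG15, BST2 and B2M. RSAD2 and OAS1, which also rose, did not have these letters in the 300-base window.

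Antiviral effectors gave the largest rises. The effector lists together held 85 measured genes, of which 50 rose and 0 fell in the test and 66 lay above all 4 siRNA arrays of 48 h, and also above all 8 siRNA arrays. Both the 50 and the 66 include MX2 and BST2, which were tested only through the sh arrays. Their median difference was 2.37, against 0.05 over all genes. Median levels of these 85 genes were 11.8, 10.8 and 10.5 on shNC, shIBSP(1) and shIBSP(2), between 7.12 and 8.88 on the siRNA arrays at 48 h, and between 7.66 and 7.99 at 24 h.

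IFI6, a small membrane protein of mitochondria and endoplasmic reticulum that counters apoptosis and flavivirus replication, had the largest difference of all genes. Its log2 intensity was 17.998, 17.57 and 17.90 on shNC, shIBSP(1) and shIBSP(2), and 7.603 on siNC, 8.97 on siHOXB13, 9.08 on siHOXA11 and 12.01 on siHOXA11-AS at 48 h, the order kept for the genes that follow. The difference was 8.41 ± 0.81 (SE, n = 3 and 4, adjusted p = 0.0012 by limma), and the 24 h arrays lay between 8.22 and 9.45. IFI27, a related protein of the same gene family, was at 14.02, 13.22 and 13.18 against 5.55, 5.80, 5.34 and 7.20, a difference of 7.51 ± 0.43 (adjusted p = 0.00014). In both genes siHOXA11-AS was the highest of the siRNA arrays, but the gap between it and the lowest sh array was larger than the whole range within either group.

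The 2′-5′ oligoadenylate synthetases OAS1, OAS2 and OAS3, which make a second messenger on binding double-stranded RNA, rose together with their relative OASL. OASL was at 13.28, 12.22 and 11.84 on the sh arrays and at 5.18, 5.52, 5.39 and 6.74 on the siRNA arrays in the same order, a difference of 6.74 ± 0.44 (adjusted p = 0.00014). OAS1 was at 17.03, 16.53 and 16.25 against 9.17, 10.65, 7.92 and 13.98, and the difference of 6.17 had an SE of 1.13 because of the spread among the siRNA arrays (adjusted p = 0.035). The OAS1 call was lost without any 1 of 5 arrays, with adjusted p of 0.098 to 0.23, and without the filter on dim genes (0.071). OAS2 rose by 6.23 and OAS3 by 4.45. PDE12, which degrades the messenger, was at 9.73 to 10.03 on the sh arrays and at 8.53 to 10.13 on the siRNA arrays, with an adjusted p of 0.79.

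Of the 7 measured IFIT and IFITM genes 6 rose. The IFIT proteins bind viral RNA by its 5′ end, and the IFITM proteins hinder fusion of viral with cellular membranes. IFIT1 was at 16.77, 15.72 and 15.52 on the sh arrays and at 8.10, 10.04, 8.63 and 13.85 on the siRNA arrays, a difference of 5.85 ± 1.14 (adjusted p = 0.045). The IFIT1 call was lost without any 1 array except siHOXA11-AS, with adjusted p of 0.062 to 0.30. IFIT3 rose by 6.35, IFIT2 by 4.57, IFITM2 by 3.30 and IFITM3 by 2.89. IFITM1 was at 19.87, 19.55 and 19.74 against 12.42, 13.63, 12.61 and 15.88 (difference 6.08 ± 0.70, adjusted p = 0.0030). No probe set exceeded 19.93 on any array, and IFITM1 was close to that upper end on the sh arrays. IFIT5, with a difference of 1.77, overlapped between the groups (adjusted p = 0.21).

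**Figure D2:**
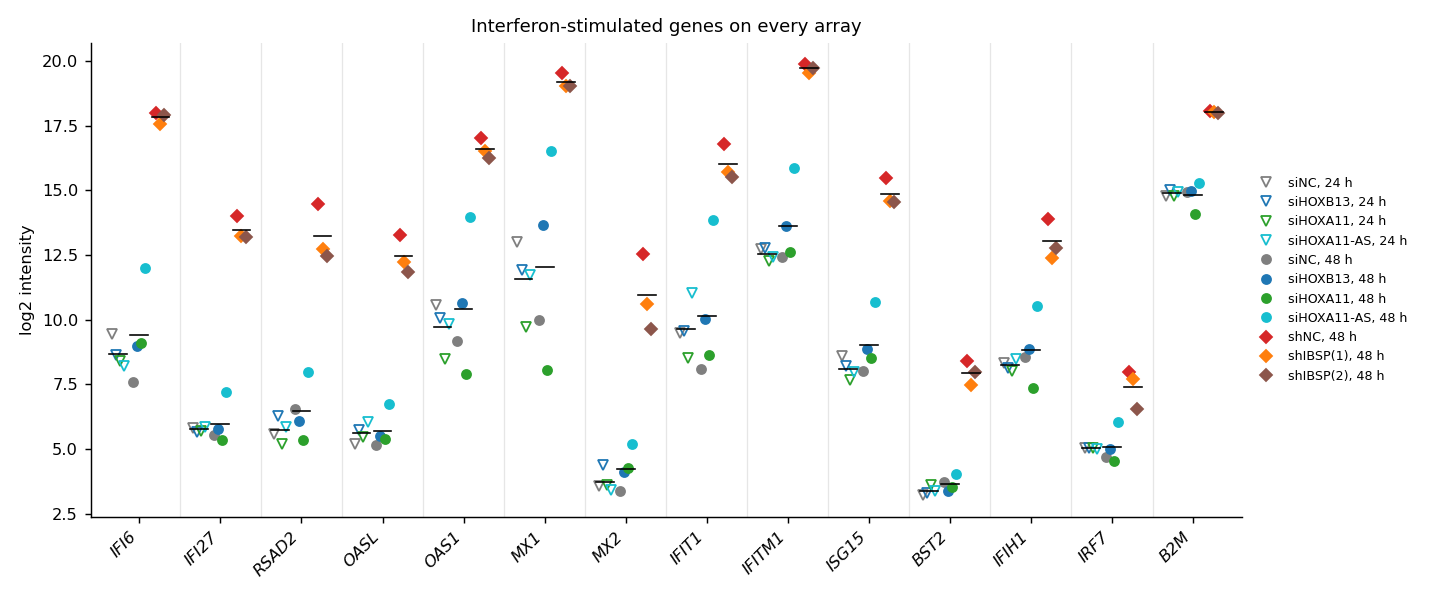
Log2 intensity of 14 interferon-stimulated genes on every array: open triangles are the 4 siRNA arrays at 24 h, filled circles the 4 siRNA arrays at 48 h and diamonds the 3 sh arrays, coloured by condition, with a bar at each group's mean. In every gene shown the 3 sh arrays lie above all 8 siRNA arrays, and siHOXA11-AS at 48 h is the highest filled circle.

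The dynamin-like GTPase MX1, a classical marker of interferon signaling, was at 19.54, 19.03 and 19.02 on the sh arrays and at 10.00, 13.65, 8.05 and 16.52 on the siRNA arrays. The groups did not overlap and their means differed by 7.14, but the wide range of the siRNA arrays left an SE of 1.61 and an adjusted p of 0.085, so MX1 did not pass the test. Its paralog MX2 stood at 12.54, 10.62 and 9.65 on the sh arrays and at 3.38, 4.11, 4.29 and 5.21 on the siRNA arrays, where 3 of the 4 values were below the intron controls. MX2 was therefore at least 74-fold higher on the sh arrays. Of the guanylate-binding proteins, which act on vacuoles of intracellular pathogens, GBP1 rose by 2.39, and 5 of the 11 genes in this list were too dim to be tested.

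ISG15, a ubiquitin-like protein that is attached to other proteins, rose with most of its conjugation machinery. It was at 15.46, 14.58 and 14.53 on the sh arrays against 8.02, 8.87, 8.53 and 10.67, a difference of 5.83 ± 0.55 (adjusted p = 0.0012). Its conjugating enzyme UBE2L6 rose by 5.65 (2.88 as the mean of its 2 probe sets), its ligase HERC5 by 3.34, HERC6 by 2.87 (1.52 as the mean of its 3), and its protease USP18, which also restrains the interferon receptor, by 3.90. The activating enzyme UBA7 was the exception among the 6 measured genes, at 5.67 to 5.85 on the sh arrays and at 5.05 to 6.28 on the siRNA arrays (difference −0.10, adjusted p = 0.95). USP18 has a near-identical copy, USP41P, which the probe sets may not separate.

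Other effectors followed. RSAD2 (viperin), which makes a chain-terminating nucleotide, was at 14.49, 12.73 and 12.47 against 6.54, 6.07, 5.34 and 7.97, a difference of 6.75 ± 0.63 (adjusted p = 0.0012). As the mean of its 2 probe sets RSAD2 differed by 3.54. Its neighbour CMPK2 rose by 4.41 with 13.56 on shNC and 10.90 and 10.39 on the shIBSP arrays. BST2 (tetherin), which holds budding virions at the cell surface, went from 3.74, 3.37, 3.53 and 4.05 on the siRNA arrays to 8.41, 7.48 and 7.99 on the sh arrays. All 4 siRNA values were below the intron controls, so that BST2 was at least 10.2-fold higher on the sh arrays. The secreted glycoprotein LGALS3BP rose by 4.30, IFI44L by 5.82, SAMD9L by 5.29, SAMD9 by 4.80 and the lysosomal membrane protein LAMP3 by 4.03. In the PARP list 4 of 8 measured genes rose, PARP9 by 3.91 and its partner DTX3L by 3.51, while PARP1, a sensor of DNA damage, was at 12.57 to 12.85 and 12.62 to 13.67.

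The sensors of the pathway rose in part, and the adaptors below them did not pass the test. Of 12 genes listed as sensors of double-stranded RNA and their adaptors, 2 rose, 5 lay above all siRNA arrays and the median difference was 0.39. IFIH1 (MDA5), the sensor of long double-stranded RNA, was at 13.89, 12.40 and 12.78 on the sh arrays and at 8.57, 8.86, 7.38 and 10.53 on the siRNA arrays, a difference of 4.19 ± 0.64 (adjusted p = 0.014). RIGI, which reads triphosphate ends, rose by 3.47. The kinase PKR (EIF2AK2, difference 2.41, adjusted p = 0.062), TLR3 (2.23, 0.087) and the editing enzyme ADAR (2.13, 0.0504) did not overlap between the groups but missed the threshold. MAVS, the mitochondrial adaptor of both RNA sensors, was at 12.88, 13.23 and 13.74 against 14.19, 13.37, 12.33 and 14.33, and the kinase TBK1 at 9.66 to 10.09 against 8.66 to 10.07. Among DNA sensors IFI16 rose by 4.91 and SAMHD1, which depletes nucleotides, by 2.79, while STING1 (difference 0.91, adjusted p = 0.13) and CGAS (0.39, 0.65) lay above the siRNA arrays of 48 h without passing the test.

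The interferons themselves gave little signal. Of 15 ligand genes with a named probe set, 12 were too dim to be tested, among them IFNB1, IFNL2 and IFNL3. IFNB1 was at 4.96, 4.78 and 4.75 on the sh arrays and at 4.53 to 5.17 on the siRNA arrays of 48 h, within reach of the intron controls. IFNL1 was at 5.61, 5.34 and 4.96 against 4.83, 4.45, 4.71 and 4.56, above all 4 arrays but not above all 8. The mean of its siRNA arrays was 4.635, so IFNL1 was tested only through the sh arrays and no p-value is given. The 10 measured receptor, kinase and ISGF3 genes gave 0 calls by limma, with 1 higher and 1 lower at an unadjusted p below 0.05, and a median difference of 0.16. In this list IFNAR1 was at 11.35 to 11.91 and 10.92 to 12.26, JAK1 at 10.02 to 10.60 and 10.26 to 11.09, and IRF9 at 12.11, 11.71 and 10.76 against 8.92, 10.03, 9.10 and 11.01. Among the regulatory factors, IRF7, which amplifies interferon expression and is itself interferon-induced, was at 7.99, 7.71 and 6.56 against 4.71, 5.01, 4.54 and 6.04 and was the only one of 8 to rise (difference 2.34 ± 0.43, adjusted p = 0.035). IRF1 was at 6.50 to 6.59 against 4.75 to 5.96 (adjusted p = 0.071). SOCS3, a feedback inhibitor, was at 5.41 to 5.65 and 4.76 to 5.71.

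Antigen presentation on MHC class I was higher, with 8 of 21 measured genes rising, 13 above all siRNA arrays and a median difference of 1.16. B2M, the invariant light chain, was at 18.07, 18.03 and 17.97 on the sh arrays and at 14.92, 14.99, 14.08 and 15.29 on the siRNA arrays, a difference of 3.20 ± 0.29 (adjusted p = 0.0012), and its SD among the sh arrays was 0.048. The immunoproteasome subunit PSMB9 rose by 3.12 and the peptide transporter genes TAP1 and TAP2 by 2.57 and 1.46. HLA-C rose by 2.34, HLA-B by 2.28, HLA-F by 2.21 and HLA-G by 1.19; HLA genes are close relatives, and the probe sets may share signal between them. The ER chaperone CALR, at 19.89 to 19.93 on the sh arrays, stood at the upper end of the scale and says nothing about a difference. MICA was at 8.43 to 8.73 and 8.48 to 9.65. MHC class II was not seen, since 12 of its 14 genes were too dim to be tested, including its regulator CIITA at 3.43 to 3.72 and CD74 at 3.60 to 4.30 on the sh arrays.

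Inflammatory cytokines were higher beside the interferon genes. NF-kB is a family of transcription factors released from inhibitors such as NFKBIA when cytokine or nucleic acid sensors signal, and its targets include IL6 and neutrophil chemokines. Of 29 measured target genes 6 rose, where 0.892% of all genes did, and the median difference was 0.61. Above the 4 siRNA arrays lay 14 and above all 8 lay 9, where 7.27% and 4.03% of all genes did. Median levels were 8.87 to 9.18 on the sh arrays, 7.67 to 8.42 on the siRNA arrays at 48 h and 7.82 to 8.87 at 24 h. IL6 was at 13.999, 13.73 and 12.72 on the sh arrays and at 7.65, 7.21, 5.66 and 7.78 on the siRNA arrays of 48 h, a difference of 6.41 ± 0.51 (adjusted p = 0.00057). At 24 h the siRNA arrays were between 7.48 and 9.47, still below every sh array. CXCL8 (interleukin-8) was at 15.26, 14.64 and 14.55 against 8.25, 8.91, 7.75 and 10.69, a difference of 5.92 ± 0.59 (adjusted p = 0.0012), with 9.63 to 11.64 at 24 h.

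CXCL5 rose by 3.41, CXCL1 by 2.71, the feedback inhibitor TNFAIP3 (A20) by 2.59 and the adhesion molecule ICAM1 by 1.29. TNFAIP3 was at 11.10, 11.29 and 11.08 on the sh arrays, 7.67 to 9.18 on the siRNA arrays at 48 h and 8.84 to 10.52 at 24 h. NFKB1 and NFKBIA, a subunit and an inhibitor of NF-kB itself, did not pass the test. NFKB1 was at 9.83 to 10.47 against 8.45 to 10.83, and NFKBIA at 12.36 to 12.51 against 11.05 to 12.31 (difference 0.61, adjusted p = 0.56). SOD2, a usual target, was at 8.71 to 9.33 against 8.38 to 9.44. Among the chemokines that interferon induces, CCL5 was at 6.96, 6.54 and 5.78 against 4.14, 4.03, 4.47 and 4.37. The siRNA values were all below the intron controls, and CCL5 was at least 3.54-fold higher on the sh arrays. CXCL10 (difference 1.55, adjusted p = 0.15) was above all siRNA arrays without passing the test. CXCL11 was at 7.12, 5.35 and 5.93 against 4.12, 4.35, 4.65 and 4.37. It was tested only through the sh arrays, so no p-value is given for it. PTGS2 (cyclooxygenase-2), outside the NF-kB list, rose by 2.84, and LCN2 (lipocalin-2), which withholds iron from bacteria and is expressed by PC3 cells, was at 17.38, 17.07 and 16.88 against 13.92, 12.82, 12.25 and 13.42 and rose by 4.01 (adjusted p = 0.0012). Of the immune checkpoint list, LGALS9 was at 7.71, 6.58 and 6.60 against 4.28, 4.30, 4.76 and 4.76. With 2 of the 4 siRNA values below the intron controls, LGALS9 was at least 5.05-fold higher on the sh arrays. CD274 (PD-L1) was at 9.003, 8.26 and 8.53 against 7.65, 6.21, 6.18 and 7.23 (adjusted p = 0.073). IDO1, which degrades tryptophan, rose by 2.51.

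**Figure D3:**
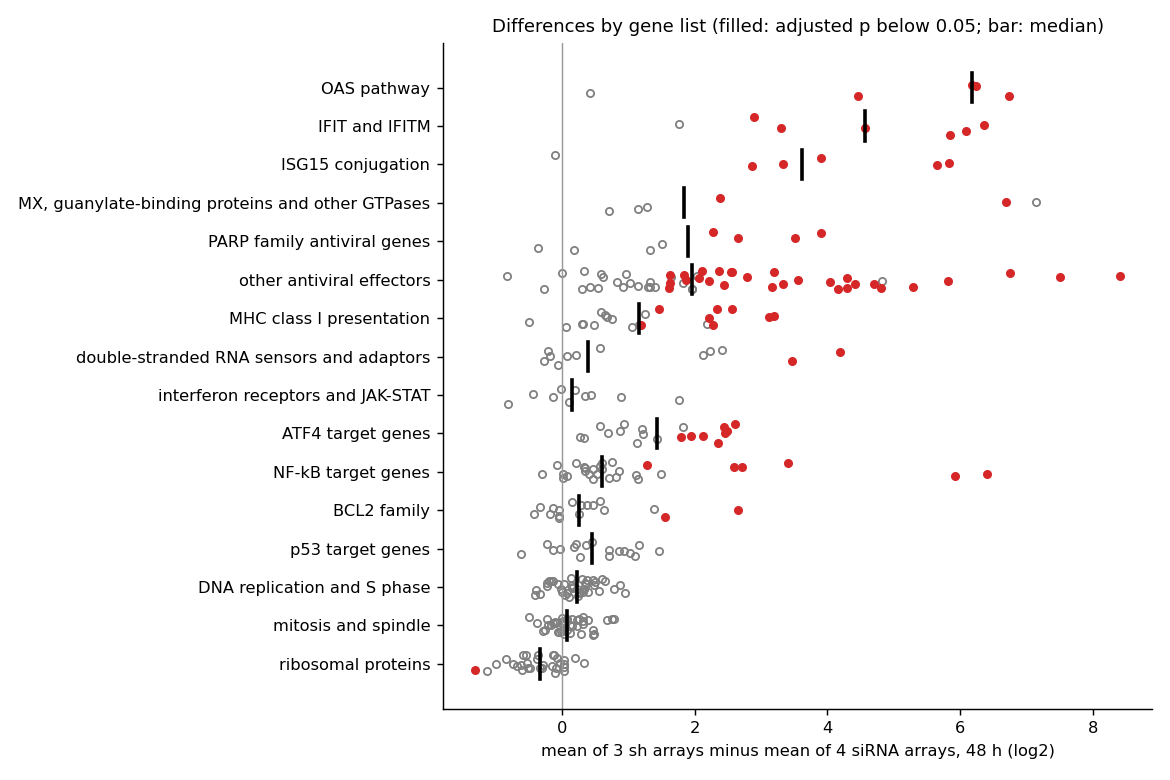
Difference of each measured gene between the mean of the 3 sh arrays and the mean of the 4 siRNA arrays at 48 h (x axis, log2), by gene list. Filled red points passed the test and open points did not, and the black bar is the list's median, from 6.17 for OAS pathway to −0.32 for ribosomal proteins.

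A set of amino acid and stress genes was also higher. ATF4 is a transcription factor whose mRNA is translated better when eIF2α is phosphorylated by one of the kinases PKR, PERK, GCN2 and HRI, and its targets take up and make amino acids or limit growth. Of 19 measured genes of this list 8 rose, 0 fell, 15 lay above all 8 siRNA arrays, and the median difference was 1.43. The rises and the 15 include DDIT3, which was tested only through the sh arrays. The 3 sh arrays were close to each other here, with median levels of 10.4, 10.6 and 10.5 on shNC, shIBSP(1) and shIBSP(2) against 8.07 to 9.44 on the siRNA arrays at 48 h.

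ATF4 itself was at 11.64, 10.89 and 10.995 on the sh arrays and at 9.06, 8.40, 8.07 and 9.75 on the siRNA arrays, a difference of 2.35 ± 0.39 (adjusted p = 0.022). CHAC1, which degrades glutathione, was at 9.76, 10.16 and 9.71 against 6.81, 7.25, 6.67 and 8.33, a difference of 2.61 ± 0.38 (adjusted p = 0.011). Asparagine synthetase (ASNS) was at 12.83, 12.95 and 12.48 against 10.84, 11.15, 10.27 and 10.26 (difference 2.12 ± 0.28, adjusted p = 0.0064). The groups did not overlap in any of these genes, and all 3 sh arrays took part. ATF3 rose by 2.46, the glycoprotein hormone STC2 by 2.49, the leucine transporter SLC7A5 by 2.44, and the pseudokinase TRIB3 by 1.95. DDIT3 (CHOP), which favours apoptosis, was at 5.99, 6.05 and 6.51 against 4.70, 3.97, 4.30 and 4.59. With 3 of the 4 siRNA values below the intron controls, DDIT3 was at least 2.98-fold higher on the sh arrays. The heavy chain of the transporter, SLC3A2, was at 15.72 to 16.13 against 13.44 to 15.14 (adjusted p = 0.069). SHMT2 and PSPH, of serine and glycine metabolism, differed by 0.33 and 0.28 and overlapped.

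Endoplasmic reticulum chaperones, the targets of the other branches of the unfolded protein response, gave 0 calls among 18 measured genes by limma, 3 higher at an unadjusted p below 0.05, and a median difference of 0.30. HSPA5 (BiP) was at 15.85, 15.33 and 15.16 against 14.87, 14.51, 13.63 and 15.57, and the groups overlapped. ERN1 (IRE1), the sensor of the splicing branch, was outside this count and rose by 1.38.

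The ATF4 composite element, read as TGATGNAA on both strands, was present in 4 of 15 matched promoters of this list (26.7%), in 191 of 10076 promoters of all genes tested (1.90%) and in 1003 of all 27305 (3.67%). In 3 genes of the list that rose it lay upstream of the start, and these stretches are shown with the element in capitals.

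ASNS (chr7:97872434-97872511, minus strand): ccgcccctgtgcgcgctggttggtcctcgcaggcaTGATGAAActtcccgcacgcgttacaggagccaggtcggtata
CHAC1 (chr15:40953227-40953304, plus strand): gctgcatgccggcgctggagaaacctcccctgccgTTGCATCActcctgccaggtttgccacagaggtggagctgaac
ATF3 (chr1:212565181-212565258, plus strand): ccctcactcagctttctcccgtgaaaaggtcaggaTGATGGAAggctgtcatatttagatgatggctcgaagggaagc

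The element lay 68, 209 and 191 bases before the start in ASNS, CHAC1 and ATF3, and none of the 15 promoters held the interferon-stimulated response element. ATF4, DDIT3, TRIB3, SLC7A5 and STC2 did not have its letters in their windows.

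**Figure D4:**
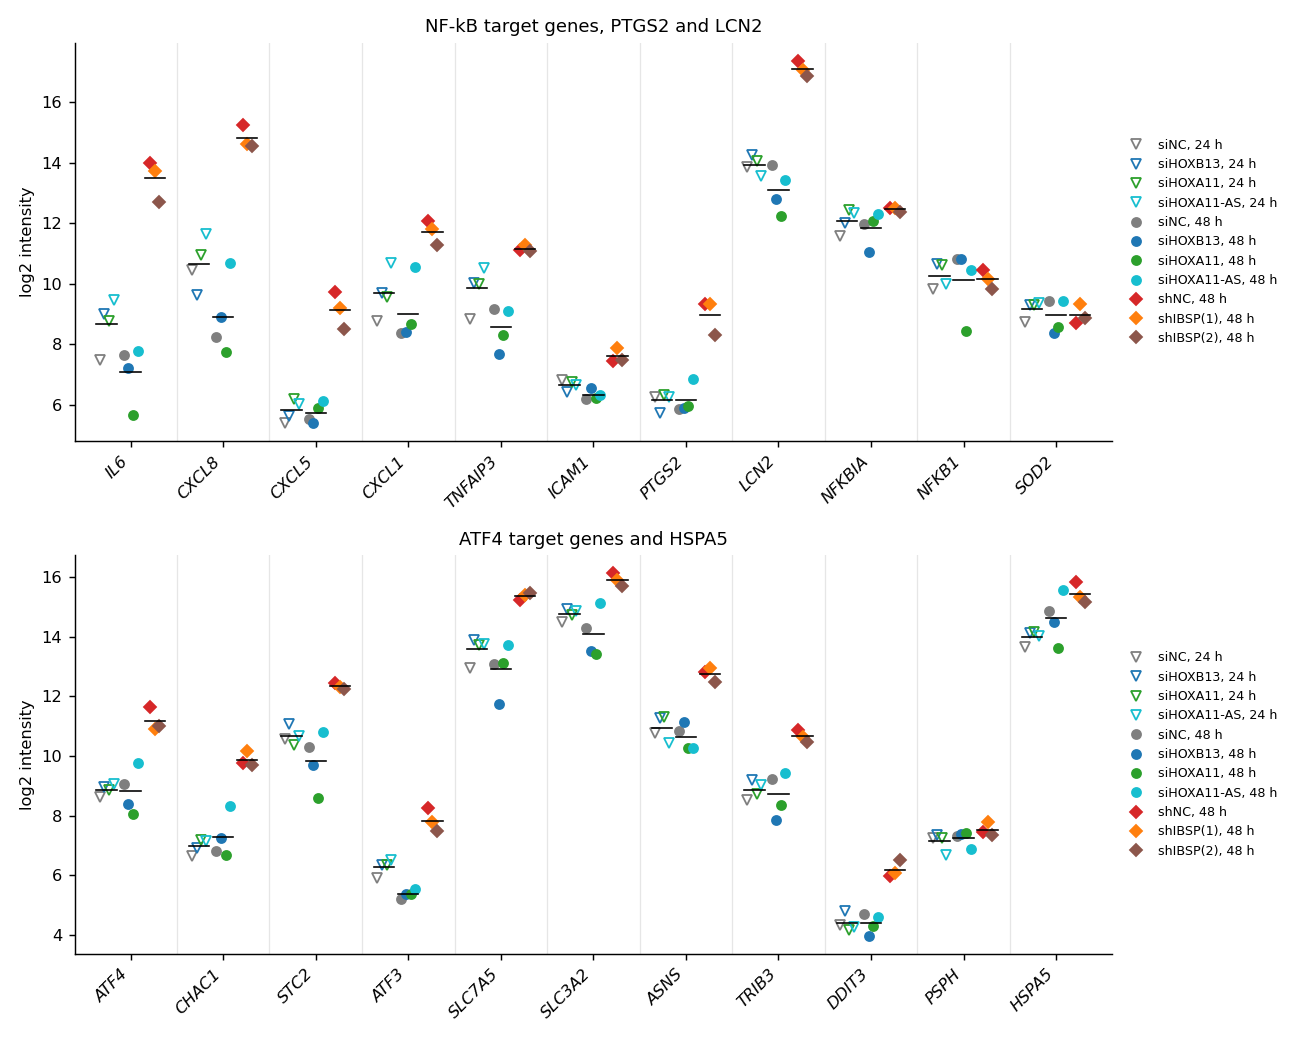
Log2 intensity on every array of NF-kB target genes with PTGS2 and LCN2 (top) and of ATF4 target genes with HSPA5 (bottom), drawn as open triangles (siRNA, 24 h), filled circles (siRNA, 48 h) and diamonds (sh, 48 h), with bars at the group means. IL6 and CXCL8 show the widest gaps of the top panel, NFKB1 and SOD2 overlap, and in ATF4, CHAC1 and ASNS the 3 diamonds lie together above all siRNA arrays.

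Genes of cell death rose in small number. PMAIP1 (NOXA), a BH3-only protein that binds MCL1 and is a target of both p53 and ATF4, was at 8.21, 7.80 and 7.28 against 5.22, 4.80, 5.12 and 5.31, a difference of 2.65 ± 0.26 (adjusted p = 0.0012). MCL1, its anti-apoptotic partner, rose by 1.56, and these were the 2 calls among 17 measured BCL2 family genes. The death ligand TNFSF10 (TRAIL), an interferon-stimulated gene, was at 9.23, 7.74 and 7.42 against 4.53, 5.02, 4.97 and 6.38 and rose by 2.91 (adjusted p = 0.029). CASP4, which binds cytosolic lipopolysaccharide, rose by 1.23. The p53 target genes gave 0 calls among 17 by limma, with 7 higher and 1 lower at an unadjusted p below 0.05, and a median difference of 0.45. PC3 cells are known to lack functional p53.

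Several genes with no tie to these lists changed as strongly. UCA1, a long noncoding RNA first described in bladder cancer, was at 11.97, 11.15 and 11.97 on the sh arrays and at 6.28, 6.75, 7.59 and 6.38 on the siRNA arrays, a difference of 4.95 ± 0.35 (adjusted p = 0.00028). CLTRN (collectrin), a membrane protein that supports amino acid transporters, was at 14.63, 14.06 and 13.90 against 7.93, 7.91, 7.27 and 10.11, a difference of 5.89 ± 0.57 (adjusted p = 0.0012). The matrix protein THBS1 rose by 3.37 against 48 h, but its levels of 17.56 to 17.99 were much nearer to the 24 h siRNA arrays at 16.80 to 17.38 than to the 48 h arrays at 12.67 to 15.47. RGS4, which limits G protein signaling, rose by 2.95 and the aminopeptidase ANPEP (CD13) by 2.28. CD68, a lysosomal glycoprotein used as a macrophage marker, was at 13.38, 13.02 and 12.95 against 11.26, 11.05, 10.96 and 10.94 and rose by 2.06, while the other 5 measured leukocyte markers gave 0 calls.

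Of the bone genes, 1 rose. MMP13, a collagenase of cartilage and bone, was at 8.81, 8.03 and 7.71 against 5.72, 6.24, 5.05 and 6.63. It rose by 2.27 (adjusted p = 0.029), the only call among 10 measured bone genes. Of the 10, 6 lay above the 4 siRNA arrays and 3 above all 8, where 7.27% and 4.03% of all genes did. Outside this list, VEGFC, a growth factor of lymphatic vessels, rose by 1.86, the activin subunit INHBA by 1.72, CSF1, the macrophage growth factor, by 1.44 and NT5E (CD73), a membrane-anchored ectonucleotidase, by 1.91. RUNX2, the transcription factor of osteoblasts, was at 11.92, 11.54 and 11.66 against 10.35, 10.20, 9.70 and 10.95 (adjusted p = 0.065). SPP1 (osteopontin), like IBSP, was dim on all arrays, at 3.57 to 4.01 and 3.44 to 3.59.

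NPIPA genes, copies of a primate-specific repeat family on chromosome 16, rose in 6 of 15 measured NPIP members, and 14 of the 15 lay above all 4 siRNA arrays. NPIPA8 was at 9.73, 9.49 and 9.52 against 6.26, 6.46, 6.88 and 6.84 (difference 2.97 ± 0.23, adjusted p = 0.00051). These copies are nearly identical, so the calls are not independent and which copy was transcribed is uncertain.

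Fewer genes fell, and by less. No fall exceeded 2.19 among the 23 that passed the test, and only RPS6 and AGO1 among them stood in a gene list. ACO1, the cytosolic aconitase that also binds iron-responsive elements as IRP1, was at 7.26, 8.44 and 7.26 on the sh arrays and at 10.23, 9.39, 9.59 and 10.14 on the siRNA arrays, so that it fell by 2.19 (SE 0.35, adjusted p = 0.017). MAPKAP1 (SIN1), a subunit of mTORC2, was at 8.81, 9.03 and 8.79 against 11.82, 10.59, 10.35 and 11.43 and fell by 2.17 (SE 0.35, adjusted p = 0.019). TTC3, a ubiquitin ligase, was at 11.63, 11.67 and 11.93 against 13.66, 14.01, 13.78 and 13.68 and fell by 2.04 (SE 0.21, adjusted p = 0.0014). In these 3 genes the 24 h siRNA arrays, at 9.35 to 9.84, 10.83 to 11.38 and 13.41 to 13.84, stood with those of 48 h.

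NUDT3, a hydrolase of inositol pyrophosphates and mRNA caps, fell by 1.90, and UBE4B, a ubiquitin chain elongation factor, fell by 1.67. PRKDC, the catalytic subunit of the DNA-dependent protein kinase, fell by 1.62 and the aldehyde dehydrogenase ALDH7A1 fell by 1.59. RASL11A, a small GTPase, fell by 1.79 against 48 h with 8.81, 9.21 and 9.18, but the 24 h arrays at 8.85 to 9.48 overlapped it. RBM3, an RNA-binding protein induced by cold, fell by 1.40, the transporter ABCC3 fell by 1.33, the cell cycle gene PRR11 fell by 1.27 and the ER lectin MLEC fell by 1.23. AGO1, an Argonaute protein that carries small RNAs, was at 8.96, 9.27 and 9.45 against 10.44, 10.63, 10.76 and 10.13 and fell by 1.27 (SE 0.24, adjusted p = 0.038). It was the only call among 16 measured genes of the RNA interference list, whose median difference was 0.03. AGO2, the Argonaute with slicer activity, was at 13.08 to 13.17 against 13.01 to 14.11.

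**Figure D5:**
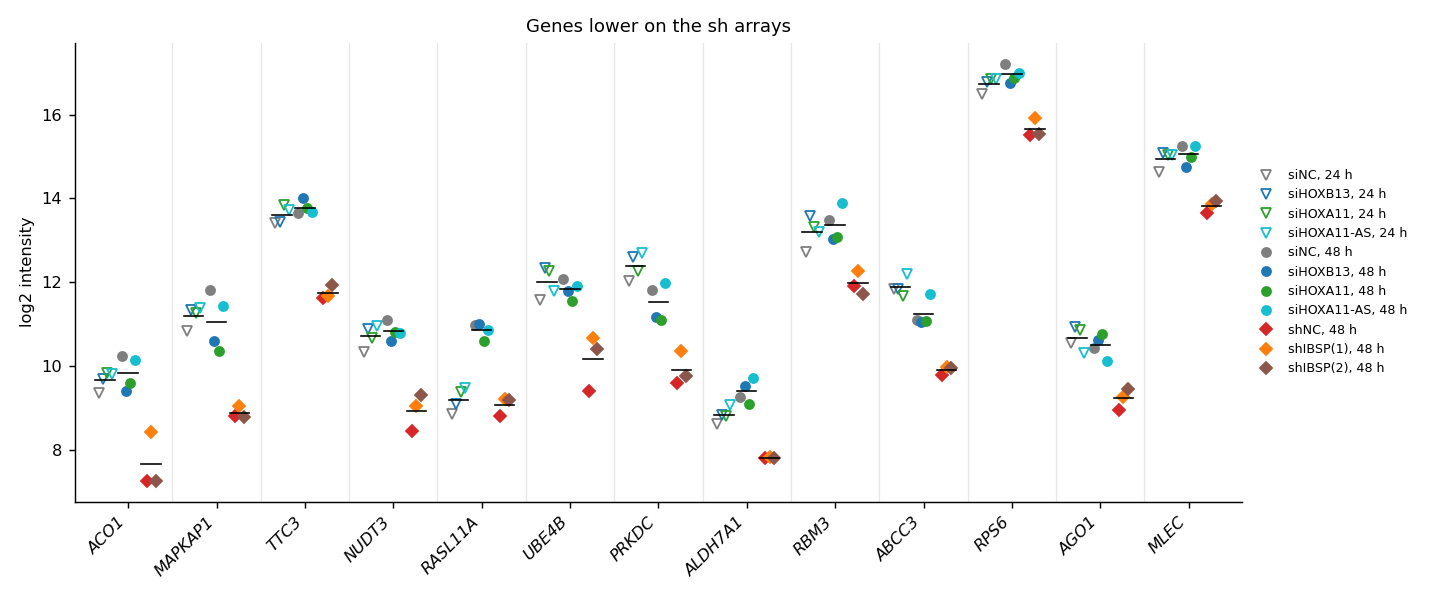
Log2 intensity on every array of 13 genes that were lower on the sh arrays, drawn as open triangles (siRNA, 24 h), filled circles (siRNA, 48 h) and diamonds (sh, 48 h), with bars at the group means. The diamonds lie below all filled circles in every gene, from MLEC, which fell by 1.23 between the means, to ACO1, which fell by 2.19, and in RASL11A they overlap the 24 h arrays.

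Ribosomal proteins held few calls. Of 31 measured genes 1 fell in the test, 8 lay below all 4 siRNA arrays of 48 h where 3.92% of all genes did, 0 lay above them, and the median difference was −0.32. RPS6, the ribosomal protein phosphorylated by S6 kinases, was at 15.52, 15.92 and 15.54 against 17.22, 16.76, 16.87 and 17.003 and fell by 1.30 (adjusted p = 0.023). RPL7A, at 14.002 to 14.30 against 14.89 to 15.47, had a difference of −1.12 and an adjusted p of 0.052, and −0.30 as the mean of its 9 probe sets. Some members, such as RPS24 at 19.89 to 19.93 on the sh arrays, were at the upper end of the scale, where a fall would be hard to see. Probe sets of the 5S ribosomal RNA, which are near-identical copies, gave 5 of the 23 falls. RNA5S9 was at 14.37, 14.81 and 14.95 against 16.15, 15.70, 16.27 and 16.03 and fell by 1.32 at 48 h, but the 24 h arrays, at 14.58 to 15.79, overlapped it.

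Proliferation genes gave no calls. Among 40 mitosis and spindle genes limma gave 0 calls, 1 gene was higher at an unadjusted p below 0.05 and the median difference was 0.08. Among 40 DNA replication genes the same counts were 0 and 3 and the median difference was 0.23. MKI67 was at 13.28 to 13.44 on the sh arrays and 12.42 to 13.88 on the siRNA arrays. Cholesterol synthesis (median difference −0.01, 16 genes) and mitochondrially encoded genes (0.03, 7 genes) gave 0 calls as well, also at an unadjusted p below 0.05.

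All 3 sh arrays took part in the rises, and most genes that rose were highest on the control array. Of the 150 genes that rose, 131 were highest on shNC, 15 on shIBSP(1) and 4 on shIBSP(2), where shNC was the highest of the 3 for 43.0% of all genes. In the antiviral effector lists shNC exceeded the mean of the shIBSP arrays by a median of 0.74, against 0.08 over all genes, and shIBSP(2) was the lowest for 63 of 85 genes. The gap was wide in MX2 (12.54 against 10.62 and 9.65) and small in B2M (18.07 against 18.03 and 17.97). In the ATF4 list shNC was the highest for 9 of 19 genes, and CHAC1, ASNS, SLC7A5 and DDIT3 were highest on a shIBSP array. With 1 array per condition these differences among the sh arrays have no test.

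Of the siRNA arrays at 48 h, siHOXA11-AS was the closest to the sh arrays in the interferon genes. It was the highest of the 4 for 68 of the 85 antiviral effector genes (80.0%), where it was the highest for 32.0% of all genes, and exceeded the mean of the other 3 by a median of 1.17 there and 0.13 over all genes. At 24 h the median level of the list on siHOXA11-AS was 7.92, within the range of the 4 arrays. Parts of the list differed at 24 h. For IFIT and IFITM genes siHOXA11-AS was the highest, at 11 against 8.59 to 9.56 on the others. For the OAS pathway it was at 9.73, within the range of 8.47 to 10.1. Against all 8 siRNA arrays, 147 of the 150 rises stayed above and 17 of the 23 falls stayed below every array. Over all tested genes 677 (4.03%) lay above and 285 (1.70%) below all 8.

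The test rests on 7 arrays and its calls changed with the arrays in it. Without shNC and siNC 9 genes rose and 0 fell by limma (619 and 342 at an unadjusted p below 0.05). The 9 were IFI27, OASL, MX2, BST2, LGALS3BP, IL6, UCA1, LCN2 and NPIPA8, of which MX2 and BST2 were tested only through the sh arrays. Without siNC and siHOXB13 of 48 h, the arrays in doubt by their HOXB13 levels, 34 genes rose and 2 fell. Leaving out 1 array at a time gave between 50 and 207 rises and between 2 and 83 falls, and of 93 named genes that had passed, between 4 and 56 no longer passed without 1 array, all with the same direction.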

How the data were processed

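Total RNA of PC3 cells was hybridized to 11 human Clariom D arrays, 1 per condition. The authors deposited 1 linear intensity per probe set, made with Affymetrix Expression Console per the submitters' processing notes; neither its version nor the normalization is given in the sources used here. Since the planned test needed log2 values, log2 was taken first and nothing else was normalized. On each array 1235 to 1409 probe sets exceeded 65535, the limit of a 16-bit scan, and none exceeded a log2 of 19.93, so the scale had been changed by the summary and differences of the brightest genes may be understated.

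Of 138745 probe sets, 36176 had 1 gene symbol, 1119 several and 101450 none in the annotation used. The brightest set with 1 symbol stood for a gene, and the 16808 of 33616 genes with the highest mean levels (log2 of 4.92 or more) were tested with limma 3.58.1 (R 4.3.3; lmFit, then eBayes; 5 residual degrees of freedom; two-sided; Benjamini-Hochberg at 0.05). The p-values measure only the spread between these arrays, which may be technical, and the number of arrays limits the precision. In simulated data for this comparison (16808 genes), 31% of changes of 1, 79% of changes of 2 and 98% of changes of 4 in log2 units were recovered, beside 7 false calls.

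The comparison, the lists and the named genes were chosen with earlier results of these data known. Named genes were drawn from the 25 largest rises and 20 largest falls without overlap, and up to 8 genes per list with the largest differences. Any interferon list member could be named, and not all were. Members opposed in sign to their list, and IBSP, SPP1, HOXB13 and HOXA11-AS, could be named as well. Further genes, such as UCA1, PTGS2, ERN1, PRR11, KRT8, MKI67, NPIPA8 and RNA5S9 where the rule did not reach them, were picked after their values were seen. Other settings changed the filter, the scaling, the probe sets read, the moderation, the test or the arrays used. Summaries and plots were made in Python 3.11.15 (pandas 2.3.3, numpy 2.4.6, matplotlib 3.10.9).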

Additional observations from a re-analysis of the deposited data

Results flagged for a closer look

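Among 278 groups of 4 siRNA arrays examined for the genes named above, 20 held 1 array that stood far from the other 3 by Dixon's test, where chance gives about 1 in 20 groups, or 13.9. The 48 h array of siHOXA11-AS gave 7 of them, all as the highest array of its group. It stood at 14 for IFITM2, 17.67 for IFITM3, 8.858 for HERC6, 11.25 for LGALS3BP, 10.55 for CXCL1, 6.838 for PTGS2 and 11.72 for ABCC3. The 24 h array of the same siRNA was the highest for IFIT2 (8.859) and IFIT3 (9.03) and the lowest for PSPH (6.67). The 24 h siNC array stood apart for MAVS (14.46, highest) and was the lowest for CALR (19.41), SOD2 (8.724), MLEC (14.62) and IBSP (3.382). The siHOXA11 array was the lowest at 24 h for PARP9 (10.16), IRF9 (7.436) and NT5E (11.36) and at 48 h for NFKB1 (8.446). The siHOXB13 array of 24 h was the lowest for PTGS2 (5.72). The 3 sh arrays are too few for this test.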

How the results depend on the processing

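The counts of 150 rises and 23 falls depended on the arrays used. Leaving out 1 array at a time gave 50 to 207 rises and 2 to 83 falls. The rises were 50 without shNC, 51 without shIBSP(1), 83 without shIBSP(2) and 97 without siNC, and the falls were 2, 3, 3 and 9 without these arrays and 83 without siHOXA11. Without shNC and siNC 9 genes rose and 0 fell, and without siNC and siHOXB13 of 48 h 34 rose and 2 fell. One fit of all 11 arrays gave 271 rises and 82 falls, with 148 and 23 of the original calls among them, and the 24 h siRNA arrays in place of those of 48 h gave 539 and 319, with 142 and 17. Falls numbered 45 after quantile normalization and 66 after median centring. The methods' t-test gave 0 rises and 0 falls after Benjamini-Hochberg adjustment and 1496 genes at an unadjusted p below 0.05, where limma gave 1104 higher and 575 lower. The cause of these changes was not tested. The other settings kept both counts within 1.5 times. Of 93 named genes that had passed, none changed direction, but 18 no longer passed with no filter on dim genes, 55, 56 and 46 without shNC, shIBSP(1) and shIBSP(2), and 38 without siNC. Averaging over probe sets lowered RSAD2 to 3.54, UBE2L6 to 2.88 and HERC6 to 1.52. Over 21 settings the list medians were 1.96 to 3.25 for the antiviral effectors, 0.946 to 1.35 for MHC class I, 0.378 to 0.7 for NF-kB, 1.23 to 1.89 for ATF4 and −0.437 to −0.22 for ribosomal proteins, whereas those for S phase (−0.154 to 0.332) and mitosis (−0.174 to 0.358) changed sign. No paired analysis was possible because each array was a different condition and no number in the labels joins sh to siRNA arrays.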

Other observations

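Replication-dependent histone genes, which package new DNA in S phase, were measured in 34 members, of which 10 lay above all 4 siRNA arrays of 48 h and 4 above all 8, with a median difference of 0.38 and 0 calls by limma (7 higher at an unadjusted p below 0.05). Their median level was highest on shNC at 11.8 and lowest of the sh arrays on shIBSP(2) at 11.1, and lay between 10.7 and 10.9 on the siRNA arrays of 48 h and between 10.5 and 11.1 at 24 h. Pseudogenes of ribosomal proteins, like the ribosomal protein genes, were below the siRNA arrays more often than above, with 45 of 476 below all 4 and 1 above and a median difference of −0.20.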
